A study of Mus musculus with 2 samples.

Results

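The transcriptional end of the Hippo pathway was examined in mouse intestinal organoids (mIOs) through 10 genes: the co-activators Yap1 and Wwtr1 (the gene of TAZ), the DNA-binding partners Tead1, Tead2, Tead3 and Tead4, and the target genes Lats2, Amotl2, Ccn1 and Ccn2. The members were chosen by gene symbol and not by a cutoff on their values, though earlier results of these data were known. All 10 were found among the 19294 genes of the count table. The mIOs were grown from intestinal crypts of Lgr5-EGFP-IRES-creERT2 mice, which carry EGFP and an inducible Cre at the Lgr5 locus, in medium with EGF, Noggin and R-spondin. The study compared 1 control library with 1 library of mIOs treated with dextran sulfate sodium (DSS), a sulfated sugar polymer used to injure gut epithelium, both at day 4, to see which transcripts differ in DSS-injured mIOs. Both cultures carried the same reporter allele, and the DSS concentration of the sequenced culture and the ages of the animals were not given in the sources used here.

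The Hippo pathway is a kinase cascade in which the kinases MST1 and MST2 activate LATS1 and LATS2, and these phosphorylate YAP and TAZ so that both stay out of the nucleus. Unphosphorylated YAP and TAZ enter the nucleus, bind TEAD proteins, which recognise DNA, and switch on target genes, among them genes of the pathway's own inhibitors. In the intestine, YAP is known for its part in epithelial repair after injury, where it is active in a regenerative state of the epithelium. Much of this control acts on the proteins, by phosphorylation and location, and was not measured by mRNA-seq.

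Total counts were 65493032 for the control and 59746968 for the DSS library. Counts were scaled with TMM factors, which correct for the few very abundant genes of a library, and are given per 1000000 counts (CPM). Differences are log2 ratios of scaled counts, DSS over control, followed in brackets by an exact Clopper-Pearson 95% interval. There was 1 library per condition, so no difference has a replicate check and no test between conditions was made. The intervals cover counting error only, and sequenced reads after PCR are not independent molecules. The line used for counting genes was a 2-fold difference, a log2 ratio of 1 or -1, over the 17235 genes that reached 10 counts in one library or both. A gene is said to reach 1 at a log2 ratio of 1 or more, and to reach -1 at -1 or less. In such bulk samples, fewer cells of a type and less RNA per cell cannot be told apart.

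The promoters show where the TEAD recognition sequence lies in these genes. RefSeq windows on the build GRCm38.p6, from 250 bases before to 50 bases after a transcription start, were at hand for 7 members, and Tead1, Tead4 and Ccn2 had no entry. The motif CATTCC, searched on both strands and thus also as GGAATG, was present in 6 of these 7 genes, all but Tead2. Over the genes of the count table with a window, 14.94% held it. The AP-1 motif TGANTCA, also searched on both strands and able to share its last 2 bases with CATTCC, was in 0 of the 7 members and in 6.94% of the table's genes. The windows of the target genes Ccn1, Amotl2 and Lats2, of the co-activator gene Wwtr1 and of Tead2 are shown whole, because these are the genes with the classical target role or with the lowest ratios, and the 40 bases around the motif are shown for Yap1 and Tead3. The sequences read 5′ to 3′ along the gene's strand, and capitals mark the TEAD motif.
Ccn1 (chr3:145649936-145650235, minus strand): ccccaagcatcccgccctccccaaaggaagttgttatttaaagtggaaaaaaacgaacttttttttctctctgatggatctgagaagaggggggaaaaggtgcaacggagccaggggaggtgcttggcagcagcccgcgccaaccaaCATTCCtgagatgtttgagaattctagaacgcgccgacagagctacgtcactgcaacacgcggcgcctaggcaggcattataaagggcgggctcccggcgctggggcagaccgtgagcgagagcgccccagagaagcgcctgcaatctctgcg
Amotl2 (chr9:102717554-102717853, plus strand): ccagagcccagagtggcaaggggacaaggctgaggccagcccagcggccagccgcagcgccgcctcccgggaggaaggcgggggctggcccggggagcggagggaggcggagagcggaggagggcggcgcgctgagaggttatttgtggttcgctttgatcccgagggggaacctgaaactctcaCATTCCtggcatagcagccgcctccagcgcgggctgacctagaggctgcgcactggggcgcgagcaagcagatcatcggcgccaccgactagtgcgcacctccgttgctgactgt
Lats2 (chr14:57746074-57746373, minus strand): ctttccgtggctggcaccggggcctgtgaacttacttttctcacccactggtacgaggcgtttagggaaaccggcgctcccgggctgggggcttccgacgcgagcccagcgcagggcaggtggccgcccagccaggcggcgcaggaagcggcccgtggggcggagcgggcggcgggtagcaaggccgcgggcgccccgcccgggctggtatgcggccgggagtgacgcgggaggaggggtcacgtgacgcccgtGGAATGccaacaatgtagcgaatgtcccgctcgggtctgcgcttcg
Wwtr1 (chr3:57575861-57576160, minus strand): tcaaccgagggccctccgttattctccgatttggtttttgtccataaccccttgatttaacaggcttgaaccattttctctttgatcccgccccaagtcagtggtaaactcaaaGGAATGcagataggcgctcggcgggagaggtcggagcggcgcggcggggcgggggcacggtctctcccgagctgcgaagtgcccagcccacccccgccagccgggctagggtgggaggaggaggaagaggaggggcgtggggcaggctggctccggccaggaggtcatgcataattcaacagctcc
Tead2 (chr7:45215542-45215841, plus strand): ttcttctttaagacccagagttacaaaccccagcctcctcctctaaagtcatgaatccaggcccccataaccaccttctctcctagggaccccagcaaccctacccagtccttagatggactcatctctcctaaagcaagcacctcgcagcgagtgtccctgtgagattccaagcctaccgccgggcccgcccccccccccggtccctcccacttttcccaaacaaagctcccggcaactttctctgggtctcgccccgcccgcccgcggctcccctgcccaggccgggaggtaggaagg
Yap1 (chr9:8004715-8004754, minus strand): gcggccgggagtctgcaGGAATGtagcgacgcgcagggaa
Tead3 (chr17:28350701-28350740, minus strand): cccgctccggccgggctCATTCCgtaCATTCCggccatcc
The motif began 103 bases upstream of the start in Ccn1, 65 bases upstream in Amotl2 and 141 bases upstream in Yap1. It began 136 bases upstream of the start shown for Wwtr1, and 5 bases downstream of the start shown for Lats2, whose second annotated start had no motif in its window. In the Tead3 stretch it occurs in a pair, at 123 and 114 bases upstream of 1 of its 3 annotated starts. Outside the stretch shown, Tead3 also held it 3 bases downstream of that start and 182 bases upstream of another. The remaining Tead3 start had no motif in its window. A match of letters is a description of the sequence and not evidence of binding.

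Of the 10 genes, 2 were past the line in the higher direction in the DSS library (Tead4 and Lats2), 2 were past it in the lower direction (Wwtr1 and Tead2), and 6 lay inside it. The background over all 17235 genes was 19.3% at a log2 ratio of 1 or more and 20.2% at -1 or less, so the share of members past each line was close to that of all genes. The members' median was -0.34, with 4 genes above 0 and 6 below, and the median of all genes was -0.06. The members thus did not share a direction. When libraries were scaled by total counts only, every log2 ratio was lower by 0.26, and 1 member lay past the upper line and 4 past the lower. With that scaling, 2659 of all 17235 genes lay past the upper line and 4508 past the lower. Of all genes beyond the lines, those with more signal after DSS made up 48.9% with TMM factors and 37.1% with total counts.

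**Figure D1:**
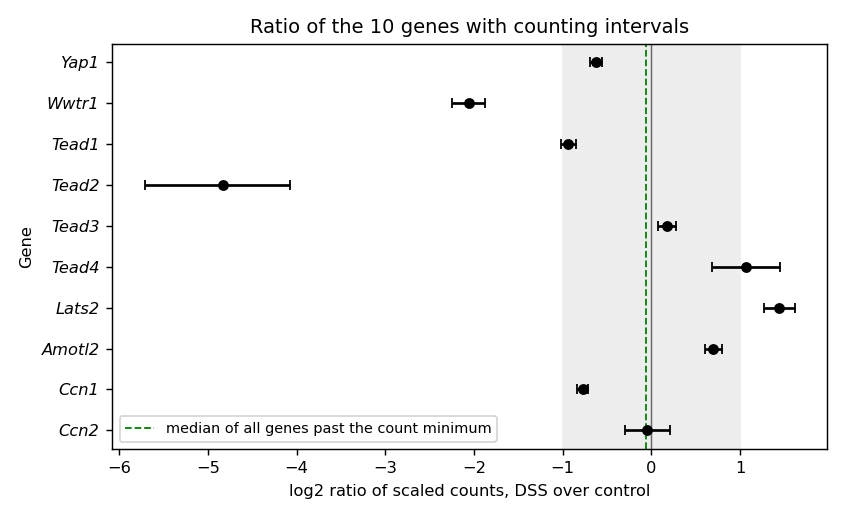
Log2 ratio of scaled counts, DSS over control, for each of the 10 genes, with exact 95% intervals for counting error; the shaded band lies between -1 and 1. Tead2 stands apart at -4.83, and Lats2 is at the other end at 1.44.

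Both co-activator genes were lower in the DSS library, and the gene of TAZ by more. Yap1 (gene ID 22601) had 6005 counts in the control library and 2976 in the DSS library, or 83.9 and 54.4 CPM. Its log2 ratio was -0.62 [-0.69 to -0.56], a level 1.54-fold lower. Wwtr1 (gene ID 97064) had 1515 and 278 counts, or 21.2 and 5.08 CPM. Its log2 ratio was -2.06 [-2.25 to -1.87], a level 4.16-fold lower, and 6.08% of all genes were as low or lower.

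The balance between the co-activators shifted towards Yap1. The ratio of Yap1 to Wwtr1 counts was 3.96 [3.75 to 4.20] in the control library and 10.7 [9.46 to 12.1] in the DSS library. This ratio is taken within a library and does not depend on the scaling between them. Per kilobase of the longest annotated transcript, Yap1 was 4.46-fold above Wwtr1 in the control library and 12.1-fold in the DSS library. Summed over both genes, the level was 105 CPM in the control library and 59.5 in the DSS library, a log2 ratio of -0.82 [-0.88 to -0.76].

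The 4 TEAD genes, whose proteins bring YAP and TAZ to DNA, differed in both directions. Tead2 (gene ID 21677) had 522 counts in the control library and 14 in the DSS library, or 7.29 and 0.256 CPM. Its log2 ratio of -4.83 [-5.71 to -4.07] corresponds to a level 28.5-fold lower and placed it at rank 32 from the bottom of all 17235 genes. Among the promoter stretches shown above, only that of Tead2 has no TEAD motif, while Wwtr1, also past the lower line, has the motif. Whether the motif bears on these ratios was not tested. Tead1 (gene ID 21676) had 3888 and 1552 counts, or 54.3 and 28.4 CPM, a log2 ratio of -0.94 [-1.02 to -0.85] that lay just inside the line, and at -1.19 past it when only total counts were used.

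Tead3 and Tead4 were not lower with TMM factors. Tead3 (gene ID 21678) had 1866 and 1612 counts, or 26.1 and 29.5 CPM. Its log2 ratio was 0.18 [0.08 to 0.27], with a sign that turned to -0.08 with total counts only. Tead4 (gene ID 21679) had 94 and 150 counts, or 1.31 and 2.74 CPM. Its log2 ratio was 1.06 [0.68 to 1.45], just past the line, and 0.81 with total counts only.

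The makeup of the TEAD counts differed accordingly. Of the summed TEAD counts, 6370 in the control library and 3328 in the DSS library, Tead1 took 61.0% [59.8 to 62.2] and 46.6% [44.9 to 48.3]. The share of Tead3 was 29.3% [28.2 to 30.4] and 48.4% [46.7 to 50.2]. Tead2 took 8.20% [7.53 to 8.90] of the control counts and 0.421% [0.23 to 0.705] of the DSS counts. For Tead4 the shares were 1.48% [1.19 to 1.80] and 4.51% [3.83 to 5.27]. The shares of Tead3 and Tead4 were therefore larger in the DSS library and those of Tead1 and Tead2 smaller, while the summed TEAD level was 89.0 CPM in the control library and 60.9 in the DSS library, a log2 ratio of -0.55 [-0.61 to -0.49].

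**Figure D2:**
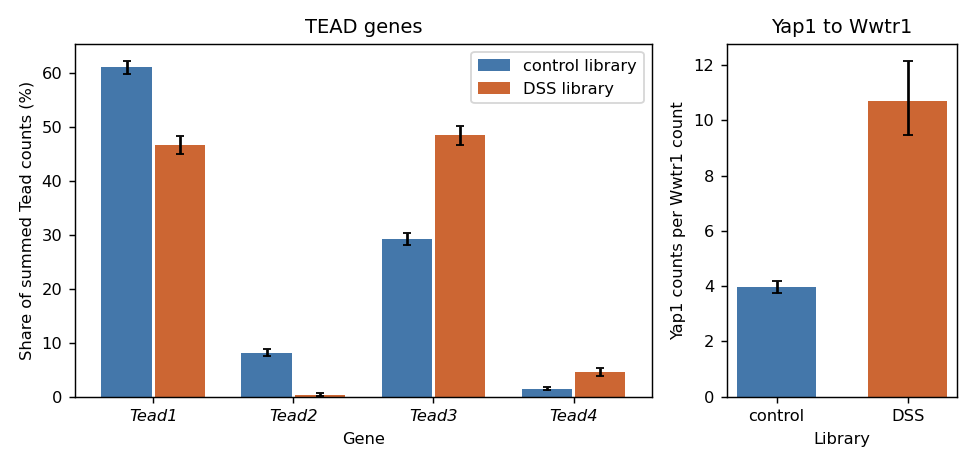
Share of each TEAD gene in the summed TEAD counts of a library, and Yap1 counts per Wwtr1 count, as bars for the control and the DSS library with exact 95% intervals for counting error. Tead3 goes from 29.3% to 48.4% of the TEAD counts and Tead2 from 8.20% to 0.421%, and the Yap1 to Wwtr1 ratio is 3.96 and 10.7.

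Which TEAD gene had the higher level per length in the control library depended on the transcript used. With the longest annotated transcript of each gene, Tead3 took 53.9% of the summed TEAD level per kilobase in the control library and 73.6% in the DSS library, and Tead1 took 31.3% and 19.7%. With the shortest RefSeq transcript, Tead1 took 54.2% and 40.6%, and Tead3 took 32.4% and 52.5%. In both versions the share of Tead1 was smaller and that of Tead3 larger in the DSS library.

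Lats2 and Amotl2 act as inhibitors of YAP and TAZ and are themselves targets, and both were higher in the DSS library. Lats2 (gene ID 50523), the kinase that phosphorylates YAP and TAZ, had 399 counts in the control library and 829 in the DSS library, or 5.57 and 15.2 CPM. Its log2 ratio was 1.44 [1.27 to 1.62], a level 2.72-fold higher, and 13.0% of all genes were as high or higher. Amotl2 (gene ID 56332), a member of the angiomotin family that holds YAP at junctions, had 1594 and 1978 counts, or 22.3 and 36.2 CPM. Its log2 ratio of 0.70 [0.60 to 0.80] lay inside the line.

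The transcripts of Ccn1 and Ccn2, which encode secreted matricellular proteins and are often used as readouts of YAP and TAZ, did not share the higher values of Lats2 and Amotl2. Ccn1 (gene ID 16007), also known as Cyr61, had 8013 counts in the control library and 3575 in the DSS library, or 112 and 65.4 CPM. Its log2 ratio was -0.78 [-0.83 to -0.72], and -1.03 with total counts only. Ccn2 (gene ID 14219), also known as Ctgf, had 312 and 231 counts, or 4.36 and 4.23 CPM, and its log2 ratio of -0.05 [-0.30 to 0.20] had an interval that includes 0. The ratio of Ccn1 to Ccn2 counts was 25.7 [22.9 to 28.9] in the control library and 15.5 [13.5 to 17.8] in the DSS library. Of the 4 target genes, Lats2 and Amotl2 thus lay above 0 and Ccn1 below it, and Ccn2 could not be told from 0.

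**Figure D3:**
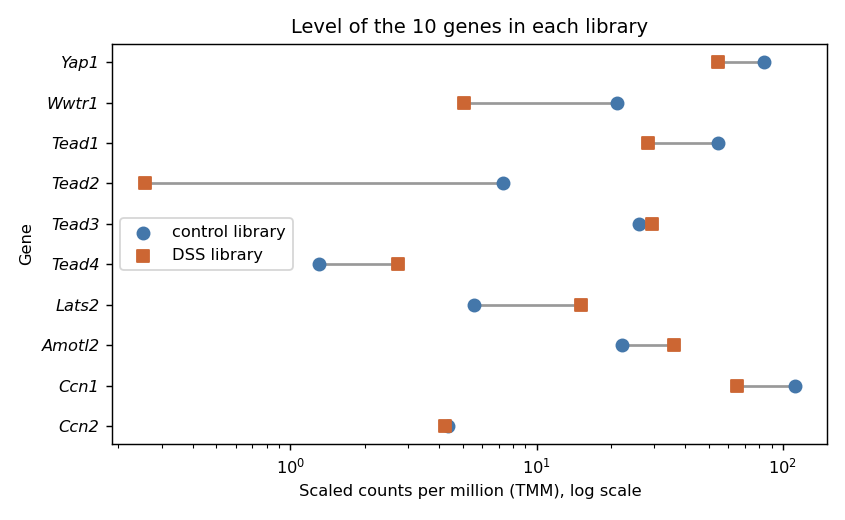
Scaled counts (CPM) of the 10 genes in the control and the DSS library on a log axis, 1 point per library. The widest gap between the libraries is that of Tead2, from 7.29 to 0.256 CPM, and Ccn2 shows nearly the same level in both.

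Ordered by level per kilobase of the longest transcript, the control library ran from Ccn1 (55.5 CPM per kilobase) over Yap1 (20.1), Tead3 (9.40), Tead1 (5.45), Amotl2 (5.15), Wwtr1 (4.51), Tead2 (2.15), Ccn2 (1.75) and Lats2 (1.07) to Tead4 (0.427). Only the neighbours Tead1 and Amotl2 had overlapping exact Poisson 95% intervals. In the DSS library the order was Ccn1 (32.4 CPM per kilobase), Yap1 (13.1), Tead3 (10.6), Amotl2 (8.36), Lats2 (2.92), Tead1 (2.85), Ccn2 (1.70), Wwtr1 (1.08), Tead4 (0.892) and Tead2 (0.0754). There, the intervals of Lats2 and Tead1 and those of Wwtr1 and Tead4 overlapped. With these lengths the 3 highest genes held the same places in both libraries, Lats2 moved from place 9 to 5, and Wwtr1 moved from place 6 to 8. The order rests on the transcript chosen. With the shortest RefSeq transcript, Lats2 was at 7.09 CPM per kilobase in the control library and 19.3 in the DSS library, where it stood above Yap1 (13.2), and Tead1 (17.8) stood above Tead3 (10.7) in the control library.

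**Figure D4:**
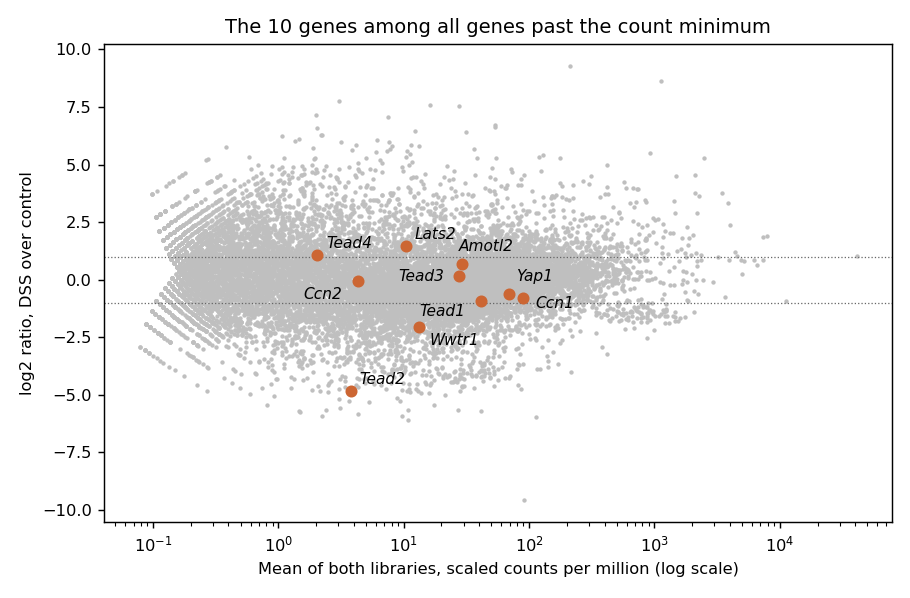
Log2 ratio of scaled counts, DSS over control, against the mean of both libraries in CPM on a log axis, for 17235 genes (grey) with the 10 genes marked; dotted lines mark 1 and -1. Tead2 is at rank 32 from the bottom, and 6 members lie between the dotted lines.

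The kinases and scaffolds of the Hippo core lay near 0. Over all genes, 19.3% reached 1 and 20.2% reached -1, for comparison with this list and those below. Of 18 core genes, 0 reached a log2 ratio of 1 and 1 reached -1, with a median of -0.03 that turned to 0.06 with upper quartile factors. That gene was Map4k1, a kinase best known from blood cells, with 190 counts in the control library and 63 in the DSS library and a log2 ratio of -1.20 [-1.64 to -0.79]. Stk3, the gene of MST2, was at -0.72 [-0.84 to -0.60], while Stk4, the gene of MST1, was at -0.09. Lats1 had 6373 and 5054 counts and a log2 ratio of 0.05 [0.00 to 0.11], beside 1.44 for Lats2. The kinases Map4k2 and Tnik were at 0.55 and 0.51, and the LATS co-activator Mob1a was at -0.20.

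Regulators at cell junctions and the cell cortex, which pass polarity and contact to the core, were more spread than the core. Of 38 listed genes, 36 had a row, and 3 of these reached 1, 5 reached -1 and 28 lay in between. Both shares past the lines were smaller than the 19.3% and 20.2% of all genes. The median was -0.02 and turned to 0.08 with upper quartile factors. Ptpn14, whose protein binds YAP and keeps it in the cytoplasm, had 611 counts in the control library and 43 in the DSS library, a log2 ratio of -3.44 [-3.92 to -2.99]. Rassf5, a partner of the MST kinases, had 120 and 10 counts and was at -3.20 [-4.29 to -2.27]. Within the WWC family, whose proteins activate LATS, Wwc2 had 838 and 140 counts and was at -2.19 [-2.46 to -1.93], and Wwc1, the gene of KIBRA, had 9675 and 19836 counts and was at 1.42 [1.39 to 1.46]. Within the angiomotin family, Amot was at -1.39 [-1.47 to -1.31] and Amotl2 at 0.70. Nf2, the gene of the upstream regulator Merlin, was at -0.15 [-0.21 to -0.09].

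Of 9 listed cofactors of TEAD, 7 had a row, of which 1 reached 1 and 1 reached -1, with a median of 0.10 that turned to -0.16 with total counts only. Vgll4, whose protein competes with YAP for TEAD, had 5491 counts in the control library and 1434 in the DSS library, or 76.7 and 26.2 CPM, and was at -1.55 [-1.63 to -1.46]. Vgll3, another TEAD-binding cofactor, had 25 and 84 counts and was at 2.14 [1.48 to 2.84]. The nuclear receptor co-activators Ncoa1 and Ncoa2 were at -0.41 and 0.50.

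Other target genes of YAP and TAZ spread to both sides, and most of them lay past a line, unlike the members. Of 34 listed, 26 had a row, and 10 of these reached 1, 8 reached -1 and 8 lay in between. Ankrd1, Axl, Foxf2, Ccdc80, Cav1, Ptgs2, Krt34 and Itgb2 had no row, so the spread leaves them out. The table holds only genes with at least 1 count in both libraries. Both shares were larger than the 19.3% and 20.2% of all genes. The median was -0.22, beside -0.06 for all genes. Ereg, the gene of the EGF receptor ligand epiregulin, had 49 counts in the control library and 586 in the DSS library and was at 3.97 [3.55 to 4.42]. Areg, the gene of the related ligand amphiregulin, had 13368 and 20626 counts and was at 1.01 [0.98 to 1.05]. Nt5e, the gene of an ectonucleotidase that forms adenosine, was at 2.39 [2.16 to 2.63], and F3, the gene of tissue factor, at 1.43 [1.38 to 1.48].

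On the lower side, Arhgef17 had 1285 counts in the control library and 76 in the DSS library and was at -3.69 [-4.05 to -3.36]. Rbms3, the gene of an RNA-binding protein, had 366 and 40 counts and was at -2.81 [-3.31 to -2.33]. Ect2, which acts in cytokinesis, had 7137 and 811 counts and was at -2.75 [-2.86 to -2.64], and Birc5, the gene of the mitotic protein survivin, was at -2.38 [-2.50 to -2.25]. The last 2 genes are also genes of dividing cells. Of the 15 target genes in this list that had a promoter window, 2 held the TEAD motif (Edn1 and Crim1), with log2 ratios of 0.55 and -0.36. That share, 13.3%, was close to the 14.94% over the genes of the count table with a window.

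Genes tied to the regenerative epithelium were on the higher side. Of 15 listed genes, 14 passed the count minimum, and 7 of these reached 1 and 0 reached -1, with a median of 0.94. Over all genes, 19.3% reached 1 and 20.2% reached -1, with a median of -0.06. This list, like the others, was chosen with earlier results of these data known. Il33, the gene of an alarmin cytokine, had 12 counts in the control library and 171 in the DSS library and was at 4.22 [3.38 to 5.20]. Msln, the gene of the surface protein mesothelin, had 544 and 6627 counts and was at 4.00 [3.87 to 4.12]. Sprr1a, a gene of the cornified envelope, was at 3.21 [3.07 to 3.36], and Il1rn, the gene of the interleukin-1 receptor antagonist, was at 2.36 [2.28 to 2.44]. Ly6a, the gene of Sca-1, was at -0.44 [-0.56 to -0.32], and Clu, the gene of clusterin, was at 0.57 [0.39 to 0.74].

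**Figure D5:**
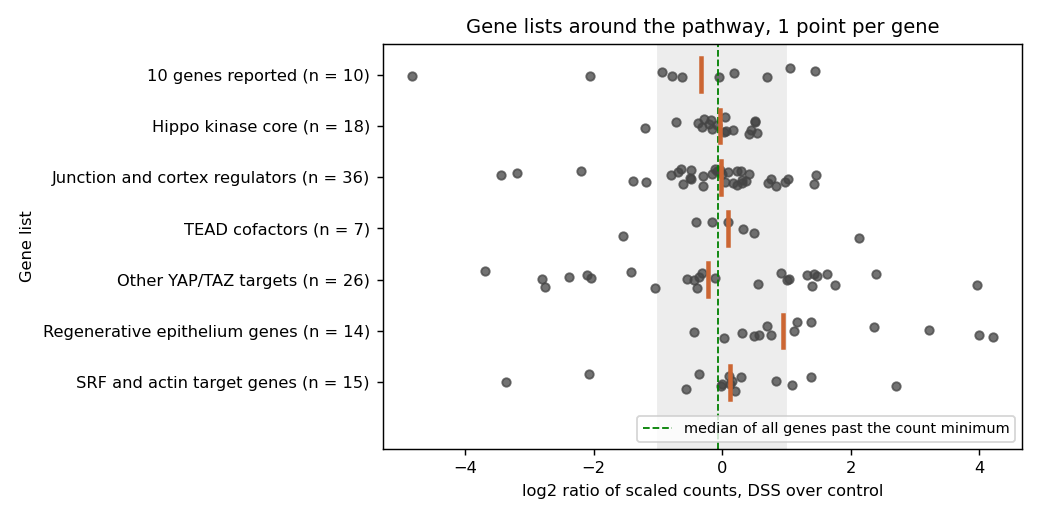
Log2 ratio of scaled counts, DSS over control, with 1 point per gene for the 10 members and 6 lists of related genes; short bars mark each list's median, the dashed line the median of all genes and the band the range between -1 and 1. The core lies near 0, and the regenerative epithelium genes have a median of 0.94.

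Cell type markers moved alongside these values. Of 9 epithelial markers, 3 reached 1 and 1 reached -1, with a median of 0.04 and a summed level of 6107 CPM in the control library and 10411 in the DSS library. Krt20, a keratin of differentiated cells, was at 3.99, Vil1 at 1.25, Krt19 at 1.15 and the intestinal transcription factor Cdx2 at -1.35, while Epcam and Cdh1 were at 0.03 and -0.04. All 4 stem cell markers reached -1, with a summed level of 702 CPM in the control library and 124 in the DSS library, and the proliferating cell markers summed to 1165 and 229 CPM, with 4 of 5 at -1 or less. All 7 enterocyte markers reached 1, with sums of 1500 and 19081 CPM. The labels name the cell type as intestinal stem cells, and the counts of the stem cell marker Lgr5 were 18849 (control) and 1048 (DSS). The part of these marker differences in the ratios of Yap1, Wwtr1, the TEAD genes, their targets and the lists above was not tested.

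Markers of other cells summed to far less than the epithelial markers. Of 11 mesenchymal markers, 5 had a row in the table, with a summed level of 2.12 CPM in the control library and 2.51 in the DSS library, and Col1a2, Col3a1, Dcn, Lum, Des and Thy1 had none. Of 6 endothelial markers, 3 had a row, with sums of 1.03 and 3.16 CPM, and Tek was at 3.40, Pecam1 at 2.59 and Vwf at -0.86. Of 8 immune markers, 4 had a row, with sums of 12.3 and 23.4 CPM, mostly Cd68 and Itgam, while Ptprc had none. In both libraries the immune sum was above the level of Tead2, Tead4, Ccn2 and Lats2. The part of such cells in the members' counts was not tested. A gene has a row here only if it had at least 1 count in both libraries.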

How the data were processed

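mRNA-seq libraries of 1 control and 1 DSS-treated mIO culture, made with a stranded poly(A) kit, were compared. The deposited values are raw counts of reads for each gene, made by the authors without normalization. Single-sample files labelled FPKM repeat those counts and were not used as FPKM. The submitters' processing notes name HISAT2 and StringTie, whereas versions, the genome build and whether counting used strand are not given in the sources used here, so reads of overlapping antisense genes may be included. Every gene in the table has at least 1 count in both libraries.

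Scaling used TMM factors from edgeR 4.0.16 (R 4.3.3), and ratios and intervals were computed with numpy 2.4.6, pandas 2.3.3 and scipy 1.17.1 under Python 3.11.15. Plots used matplotlib 3.10.9. A minimum of 10 counts in either library was set for genes to be counted. The computation was tested on simulated data. Levels per length used the longest GENCODE transcript of each gene, and median and shortest RefSeq transcripts were added after seeing the data. Promoters were taken from RefSeq (GRCm38.p6). At these depths the interval of a log2 ratio is set by the smaller of both counts.

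The members and lists were chosen with earlier results of these data known. All 10 members were named, and from each pathway list the 4 genes with the ratios farthest from 0, given 50 counts or more in either library. Stk4, Lats1, Mob1a, Amot, Nf2, Areg, Nt5e, F3, Birc5, Edn1, Crim1, Ly6a, Clu, Srf, Tagln and the cell type markers given with values were named after their values were seen. Other scalings were tried (total counts, size factors from DESeq2 1.42.0, upper quartiles, the median of all genes as centre), as were thinning to equal depth, a prior count of 2, other minimums and a line at 2 and -2.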

Additional observations from a re-analysis of the deposited data

How the results depend on the processing

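No paired analysis was possible because each condition had 1 library, and for the same reason no replicate could be left out. No member past the line changed sign under the alternatives run. With total counts only, 1 member lay at 1 or more and 4 at -1 or less, and the members' median was -0.59. Of all 17235 genes, 2659 and 4508 lay past these lines with that scaling, and their median was -0.31. With the line at 2 and -2, 0 members lay past the upper line and 2 past the lower, Tead2 and Wwtr1. Wwtr1, at -2.06 with TMM factors, was close to that line. Of all 17235 genes, 1356 lay past the upper and 1127 past the lower line. Over the members, Yap1 ranged from -0.88 to -0.53, Wwtr1 from -2.31 to -1.97, Tead1 from -1.19 to -0.85, Tead2 from -5.09 to -4.65, Tead4 from 0.81 to 1.15, Lats2 from 1.19 to 1.53, Amotl2 from 0.44 to 0.79 and Ccn1 from -1.03 to -0.69. Tead3 (-0.08 to 0.27) and Ccn2 (-0.30 to 0.05) were the members whose sign depended on the scaling. Of 108 list counts under alternatives, 101 stayed within 1.5 times the reported count, and the other 7 belonged to the line at 2 and -2. The list medians moved more: with total counts only they were -0.29 for the kinase core, -0.27 for the junction regulators, -0.16 for the TEAD cofactors, -0.47 for the other targets, 0.69 for the regenerative epithelium genes and -0.13 for the actin genes. Tead2 with 14 counts in the DSS library and Tead4 with 94 in the control library were the members with the least depth.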

Other observations

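Genes of the actin cytoskeleton and its transcription factor SRF, which overlap in function with targets of YAP and TAZ, differed in both directions. Of 15 such genes, 3 reached a log2 ratio of 1 and 2 reached -1, with a median of 0.13 that turned to -0.13 with total counts only. Tagln, among those that reached 1, had only 2 counts in the control library and 10 in the DSS library. With at least 10 counts required in both libraries, 2 genes reached 1. Myl9, the gene of a myosin light chain, had 6098 counts in the control library and 451 in the DSS library and was at -3.37 [-3.51 to -3.23]. Flna, the gene of filamin A, which links actin filaments, had 5645 and 1021 counts and was at -2.08 [-2.18 to -1.98]. Zyx, the gene of the focal adhesion protein zyxin, had 3922 and 7815 counts and was at 1.38 [1.33 to 1.44], and Actb was at 1.08 [1.07 to 1.09], a value that is uncertain because its reads can be shared with near-identical actin genes. Srf itself had 4817 and 3686 counts and was at 0.00 [-0.06 to 0.07]. Of the 4 other CCN family genes, 0 had a row in the table.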
